A study of Mus musculus with 29 samples.

Results

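The inflammatory chemokines followed here were 10 genes chosen by name, Ccl2, Ccl5, Ccl6, Ccl7, Ccl8, Ccl9, Cxcl1, Cxcl9, Cxcl10 and Cxcl16, out of 13982 genes listed for 14 libraries of poly(A) RNA. All libraries came from (NZBxNZW)F1 mice, a cross that spontaneously develops lupus with anti-dsDNA antibodies and nephritis, and no mouse is labelled as treated. Proteinuric mice gave 4 kidney libraries, 3 libraries of tertiary lymphoid structures (TLS, lymph node-like immune aggregates cut out of the kidney by hand under a loupe) and 3 lymph node libraries. Mice 6 and 20, aged 39 and 36 weeks, gave all 3 tissues, a mouse aged 25 weeks gave kidney and TLS, and a mouse aged 32 weeks gave kidney and lymph node. TLS and kidney tissue of a mouse came from the same organ, and the lymph nodes drained the kidney. The other lymph nodes came from 3 mice labelled antibody positive for under 5 weeks, aged 28, 29 and 18 weeks, and from 1 young mouse aged 4 weeks. The miRNeasy kit was used for RNA of the antibody-positive mice and TRIzol for the rest, so that the stage of disease and the kit cannot be told apart between these lymph nodes. The 15 whole-kidney libraries of the same series, out of 29 samples in all, were not analysed here.

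Chemokines are small secreted proteins that draw leukocytes along a gradient toward the tissue that makes them, by acting on G protein-coupled receptors of the incoming cells. Inflammatory chemokines are switched on by cytokines such as interferon-gamma and TNF, whereas homeostatic chemokines such as Ccl19, Ccl21a and Cxcl13 place T and B cells within lymphoid tissue. In nephritic kidney, chemokines made by tubular, mesangial and immune cells are known to bring in monocytes, macrophages and T cells. Ccl2 and Ccl7 attract monocytes through Ccr2, and Ccl8, from the same gene cluster, acts through Ccr8 in mice. Cxcl1 attracts neutrophils through Cxcr2. Ccl6 and Ccl9 are ligands of Ccr1, a receptor of myeloid cells. Ccl5 attracts T cells and monocytes, Cxcl9 and Cxcl10 attract activated T cells and NK cells through Cxcr3, and Cxcl16 is a transmembrane or shed ligand of Cxcr6.

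The 10 genes lie on chromosomes 5 and 11 (GRCm38, GENCODE M21). On chromosome 5 are Cxcl1 (90891241 to 90893115, plus strand), Cxcl9 (92321347 to 92328079, minus strand) and Cxcl10 (92346638 to 92348889, minus strand). Chromosome 11 carries Cxcl16 (70453983 to 70459984, minus strand) and 2 groups of neighbours. One group is Ccl2 (82035571 to 82037453), Ccl7 (82045712 to 82047525) and Ccl8 (82115185 to 82116799) on the plus strand, and the other is Ccl5 (83525778 to 83530518), Ccl9 (83572919 to 83578636) and Ccl6 (83587882 to 83593087) on the minus strand. Overlapping genes lie on the other strand of Ccl2, Ccl6, Cxcl10 and Cxcl16, and whether the counting used the strand is not given in the sources used here. Art3, across from Cxcl10, had 0 to 4 reads per library, and Zmynd15, across from Cxcl16, had 0 to 7 (reads of such a pair cannot be told apart without strand). The partners of Ccl2 and Ccl6, Gm17268 and E230016K23Rik, were not analysed here.

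Promoter sequences (250 bases before to 50 bases after the start, RefSeq, GRCm38.p6) were matched for 6 of the 10 genes: Cxcl1, Cxcl9, Cxcl10, Ccl6, Ccl8 and Ccl9. Those of the 3 CXC genes on chromosome 5 are shown because these genes had different patterns across the tissues. Cxcl9 was read in TLS and lymph node only, Cxcl1 in kidney and 1 TLS, and Cxcl10 in all libraries but 1. Capitals mark matches, on either strand, to the interferon-stimulated response element spelled GAAANNGAAA, to the gamma-activated site spelled TTCNNNGAA, or to the NF-kB consensus. The first is at chr5:92348840-92349139 (minus strand), the second at chr5:92328030-92328329 (minus strand) and the third at chr5:90890995-90891294 (plus strand).
Cxcl10: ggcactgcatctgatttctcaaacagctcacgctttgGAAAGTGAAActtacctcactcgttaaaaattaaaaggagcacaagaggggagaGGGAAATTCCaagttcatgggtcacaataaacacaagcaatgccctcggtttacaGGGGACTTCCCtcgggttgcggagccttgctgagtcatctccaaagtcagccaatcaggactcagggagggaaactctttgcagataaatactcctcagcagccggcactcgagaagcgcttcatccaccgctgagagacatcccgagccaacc
Cxcl9: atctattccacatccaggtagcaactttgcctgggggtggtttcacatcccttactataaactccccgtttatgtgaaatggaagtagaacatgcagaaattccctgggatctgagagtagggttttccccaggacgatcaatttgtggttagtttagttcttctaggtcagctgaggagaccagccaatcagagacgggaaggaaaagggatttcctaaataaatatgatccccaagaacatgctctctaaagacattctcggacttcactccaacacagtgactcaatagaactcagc
Cxcl1: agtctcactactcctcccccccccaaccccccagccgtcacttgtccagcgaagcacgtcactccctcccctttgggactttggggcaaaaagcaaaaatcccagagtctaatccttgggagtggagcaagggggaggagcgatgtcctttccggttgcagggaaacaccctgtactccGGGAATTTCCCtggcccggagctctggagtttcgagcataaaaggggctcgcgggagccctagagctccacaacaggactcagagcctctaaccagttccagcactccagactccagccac

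The Cxcl10 promoter held 1 match to the interferon-stimulated response element, GAAAGTGAAA, beginning 213 bases upstream of the start. It also held 3 matches to the NF-kB consensus, at 159, 104 and 103 bases upstream, the last 2 of which overlap. Cxcl1 held 2 overlapping NF-kB matches at 71 and 70 bases upstream. In the Cxcl9 window none of the 3 motifs was spelled in these letters, which says nothing of sites spelled otherwise or lying outside the window. Among the other promoters, Ccl9 held 1 NF-kB match, at 35 bases upstream, and Ccl6 and Ccl8 held no match to any of the 3. Of all 32841 promoters of this length, 3.44% held the interferon-stimulated response element, 8.3% the gamma-activated site and 8.46% the NF-kB consensus. A match is a spelling, and binding was not measured.

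Values are given as reads and as normalized counts. Each normalized count is a size-factor-scaled read number to which 1 read had been added, so the reads could be recovered and a gene with no read keeps a value between 0.786 and 1.77. The libraries held between 343825 and 443379 reads, and 3 reads, with the added read, were worth a normalized count between 3.14 and 7.10. Differences are on the scale of log2(normalized count + 1), which understates changes of genes with few reads. A gene is called when its adjusted p is under 0.05 (limma, Benjamini-Hochberg over all genes tested). Ribosomal RNA genes held 0.803% to 7.74% of the reads in 11 libraries, against 59.9% (kidney, mouse aged 32 weeks), 32.9% (lymph node, mouse 6) and 25.6% (TLS, mouse aged 25 weeks) in the others. Marker genes matched the tissue labels: the 7 proximal tubule markers summed to normalized counts of 5623 to 15826 in kidney and 901 to 6337 in TLS but had at most 2 reads in any lymph node, and the 6 B-cell markers summed to 6.95 to 26.1 in kidney, 317 to 460 in TLS and 593 to 854 in lymph node of proteinuric mice. TLS libraries also held reads of the 6 urothelium markers (summed counts of 138 to 752, against 10.6 to 29.0 in kidney), and their part in any chemokine value was not tested.

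The chemokines together made up a small part of each library, and the kidney libraries were the least alike. The 10 genes summed to 186 reads in kidney of mouse 20 and 111 in kidney of mouse 6, but to 13 and 12 in kidney of the mice aged 32 and 25 weeks. Per 100000 reads they gave 80.6, 47.5 and 26.4 in TLS (mice 6 and 20 and the mouse aged 25 weeks) and 55.1, 67.5 and 63.4 in lymph node (mice 6 and 20 and the mouse aged 32 weeks). On the same scale, kidney gave 51.2 (95% Wilson interval, 44.3 to 59.1) in mouse 20 and 3.28 (1.88 to 5.73) in the mouse aged 25 weeks, intervals that cover counting error only and do not meet. With ribosomal RNA left out of the total, kidney of the mouse aged 32 weeks held 8.60 chemokine reads per 100000, still below the 32.7 of mouse 6 and the 53.0 of mouse 20.

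The kidneys of mice 6 and 20 therefore carried most chemokine reads of that tissue, and several other genes divided the 4 kidneys the same way. The 10 macrophage markers summed to 563 and 785 in kidney of mice 6 and 20, against 278 in the mouse aged 25 weeks and 183 in the mouse aged 32 weeks. Not every marker of this sum divided the kidneys so. Csf1r had 29, 25, 36 and 7 reads in mice 6 and 20 and the mice aged 25 and 32 weeks, whereas Cd14 had 142, 97, 8 and 2. The 6 fibroblast markers summed to 138 and 178, against 24.3 and 21.3. The 7 proximal tubule markers summed to 5623 and 8147 in mice 6 and 20, against 15826 and 15643, and most of these reads were of 1 gene, Kap (5068, 8386, 11792 and 7881 reads in mice 6 and 20 and the mice aged 25 and 32 weeks). Reads of the others of the 7, in the same order, were 338, 257, 542 and 184 for Slc34a1 and 83, 65, 403 and 76 for Lrp2. Miox had 613, 752, 695 and 569, and Slc5a2 had 48, 50, 62 and 35. Slc22a8 had 106, 77, 95 and 37, and Slc22a6 had 97, 65, 59 and 24. These reads are not scaled, and the size factors that divide them were 1.13, 1.19, 0.863 and 0.563 in the same order. T and NK cell markers were low in all 4 kidneys, with 4 and 11 reads in mice 6 and 20 and 0 reads in the others. The part of these cells in the chemokine values was not tested, and in tissue RNA a smaller number of cells of a type and less RNA per cell cannot be told apart.

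**Figure D1:**
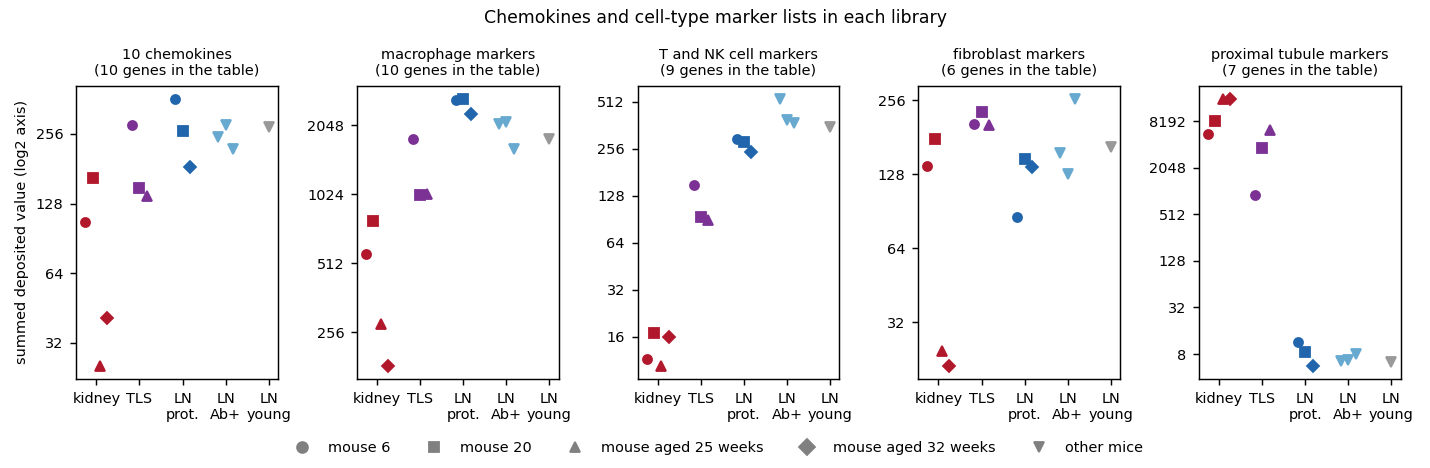
Summed normalized counts (log2 axis) of the 10 chemokines and of 4 marker lists in each of the 14 libraries, with 1 point per library, colours for the groups and symbols for the mice. In kidney, mice 6 and 20 lie above the other two for chemokines, macrophage and fibroblast markers, and below them for the sum of proximal tubule markers, most of it reads of Kap.

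The mixture of chemokines also differed between the tissues. Cxcl16 gave 24.2% to 75.0% of the chemokine reads in kidney, 10.6% to 21.4% in TLS and 4.17% to 9.17% in lymph node of proteinuric mice, so that its shares did not overlap between these tissues. Ccl8 gave 0.901% to 38.5% in kidney, 31.1% to 55.9% in TLS and 24.8% to 57.9% in lymph node. Ccl5 gave 6.84% to 15.6% of the reads in TLS and 16.2% to 36.2% in lymph node of proteinuric mice. The highest Cxcl16 share, 75.0%, rests on the 12 chemokine reads in kidney of the mouse aged 25 weeks.

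**Figure D2:**
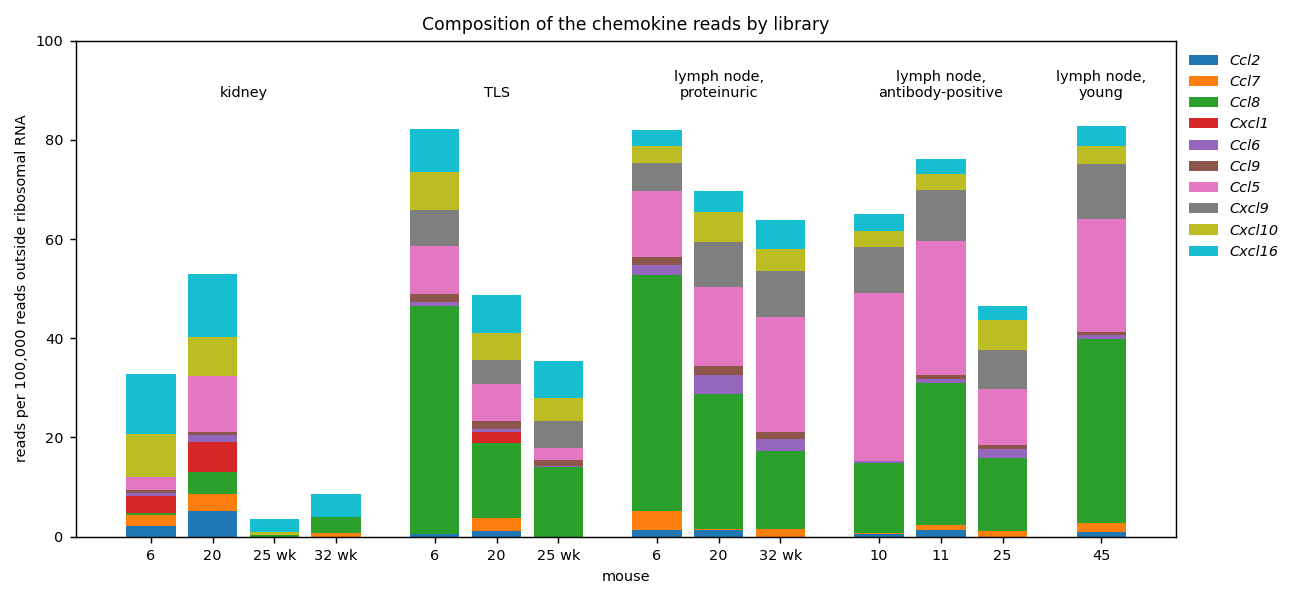
Reads of each of the 10 chemokines per 100000 reads outside ribosomal RNA genes, stacked, with 1 bar per library and the mouse under each bar. Ccl8 (green) forms a large block in TLS and lymph node, Cxcl9 (grey) has no block in kidney, and the kidney bars reach 32.7 and 53.0 in mice 6 and 20 but 3.47 and 8.60 in the other two.

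Levels per kilobase of merged exon allow a rough comparison between genes. For Cxcl1 and Cxcl10 the merged exons filled the whole span of the gene (1875 and 2252 bases). Any intron was thus counted as exon, so levels of these genes may be understated and their ranks are uncertain. On this scale Ccl8 was the highest of the 10 chemokines in every group. It had 11.9 ± 12.1 (SD, n = 4) size-factor-scaled reads per kilobase in kidney, 160 ± 118 (n = 3) in TLS and 224 ± 157 (n = 3) in lymph node of proteinuric mice. Ccl5 was second, at 10.9 ± 16.7, 21.9 ± 12.3 and 61.9 ± 4.13 reads per kilobase in the same order. In kidney the first 3, Ccl8, Ccl5 and Cxcl16 (8.03 ± 4.92 reads per kilobase), lay within the spread of one another. In TLS, Cxcl16 (8.62 ± 1.18) and Cxcl9 (6.36 ± 1.60) could not be put in order beyond their spread. Cxcl10 (8.51 ± 2.41) lay between them, but the length used makes that place uncertain. At the low end, Ccl6 (0.967 ± 0.412) and Ccl9 (1.55 ± 0.119) reached a few reads per library in TLS, and Cxcl9 had none in kidney.

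**Figure D3:**
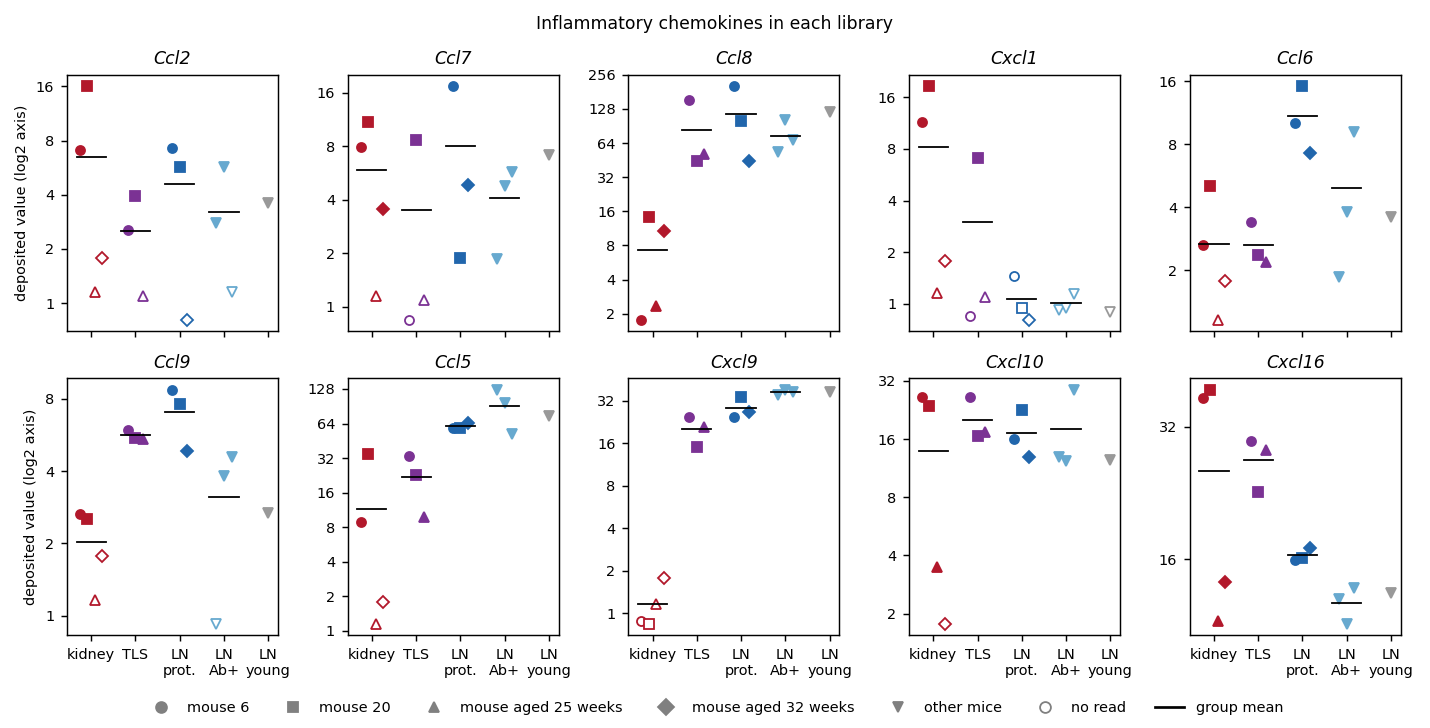
Normalized counts (log2 axis, a separate scale per panel) of each chemokine in each library, with 1 point per library, a line at the mean of each group and symbols for the mice (open symbols, no read). Ccl8 and Cxcl9 in the 3 TLS libraries lie above all 4 kidney libraries, whereas Ccl2, Ccl7, Cxcl10 and Cxcl16 overlap between TLS and kidney.

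Among the clustered genes Ccl2, Ccl7 and Ccl8, Ccl8 differed most between tissues. In kidney all of them were scarce, with sums of 25, 21 and 23 reads, and Ccl2 and Ccl7 were scarce in TLS and lymph node too. Ccl8 had 1, 16, 1 and 5 reads in kidney of mice 6 and 20 and the mice aged 25 and 32 weeks. In TLS it had 179, 56 and 46 reads (mice 6 and 20 and the mouse aged 25 weeks), and in lymph node of proteinuric mice 139, 104 and 54 (mice 6 and 20 and the mouse aged 32 weeks). All TLS and lymph node libraries lay above all kidney libraries, and TLS and lymph node overlapped. The normalized counts were 7.27 ± 6.22 (SD, n = 4) in kidney, 82.9 ± 60.5 (n = 3) in TLS and 116 ± 80.4 (n = 3) in lymph node, where mouse 6 was the highest in both tissues. In its kidney, mouse 6 had 1 read of Ccl8 but 29 of Cxcl10.

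Ccl2, the main monocyte attractant of this family, had 7 and 18 reads in kidney of mice 6 and 20 and none in the other 2 kidneys. It had 2, 4 and 0 reads in TLS (mice 6 and 20 and the mouse aged 25 weeks) and 4, 5 and 0 in lymph node (mice 6 and 20 and the mouse aged 32 weeks), so its 3 tissues overlapped. Its mean over the 10 libraries was below a normalized count of 5, and it was not tested. Ccl7 had 8, 12, 0 and 1 reads in kidney (mice 6 and 20 and the mice aged 25 and 32 weeks), 0, 10 and 0 in TLS and 11, 1 and 5 in lymph node. A single TLS library, that of mouse 20, held all Ccl7 reads of this tissue. That library also had the highest sum of adipocyte markers among the TLS libraries (normalized count of 457). These markers summed to 46.9, 74.2, 83.4 and 40.8 in kidney (mice 6 and 20 and the mice aged 25 and 32 weeks). In lymph node they summed to 649, 1970 and 169 (mice 6 and 20 and the mouse aged 32 weeks). The highest of these lymph node sums, in mouse 20, thus went with 1 read of Ccl7. A link between Ccl7 and these markers was not tested.

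Cxcl1, the neutrophil attractant, had a pattern of its own. It had 12 and 21 reads in kidney of mice 6 and 20, none in the other 2 kidneys, 8 reads in TLS of mouse 20, none in the other 2 TLS libraries and none in any of the 7 lymph nodes. Against the floor of 3 reads in the shallowest of the proteinuric lymph nodes, its mean in kidney (8.25 ± 8.35, n = 4) was at least 1.42-fold higher, and its mean fell below the filter, so that no test was made. Neutrophil markers were low where Cxcl1 was read. The 3 markers in the table summed to 4 and 3 reads in kidney of mice 6 and 20, against 154 reads in lymph node of mouse 6, which had no read of Cxcl1.

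The Ccr1 ligands Ccl6 and Ccl9 were low. Ccl6 had 2, 5, 0 and 0 reads in kidney (mice 6 and 20 and the mice aged 25 and 32 weeks), 3, 2 and 1 in TLS and 6, 15 and 8 in lymph node of proteinuric mice. Its values in lymph node lay above those of both other tissues, with means of 10.9 ± 3.99 (n = 3) in lymph node, 2.64 ± 0.654 (n = 3) in TLS and 2.66 ± 1.71 (n = 4) in kidney. Ccl9 had 2, 2, 0 and 0 reads in kidney, 6, 6 and 4 in TLS and 5, 7 and 5 in lymph node. The Ccl9 values of TLS (5.63 ± 0.266, n = 3) and lymph node (7.04 ± 1.97, n = 3) lay above those of kidney (2.03 ± 0.698, n = 4), but its overall mean was below the filter and it was not tested in this fit.

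Among the T-cell attractants, Cxcl9 separated kidney from both lymphoid tissues, and Cxcl10 did not. Cxcl9 had no read in any of the 4 kidneys. It had 28, 18 and 18 reads in TLS (mice 6 and 20 and the mouse aged 25 weeks) and 16, 35 and 32 in lymph node of proteinuric mice (mice 6 and 20 and the mouse aged 32 weeks). Its normalized counts were 20.1 ± 4.86 (n = 3) in TLS and 28.5 ± 4.98 (n = 3) in lymph node, and the highest TLS library (24.59) lay just below the lowest lymph node library (24.63). Cxcl10 had 29 and 27 reads in kidney of mice 6 and 20, 2 in the mouse aged 25 weeks and 0 in the mouse aged 32 weeks. It had 30, 20 and 15 reads in TLS and 10, 23 and 15 in lymph node, so the kidneys of mice 6 and 20 reached the levels of TLS.

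Ccl5, which T cells and NK cells themselves make, had 9 and 40 reads in kidney of mice 6 and 20 and none in the other 2 kidneys. It had 38, 28 and 8 reads in TLS and 39, 61 and 79 in lymph node of proteinuric mice. Kidney and TLS overlapped, and all lymph nodes lay above both tissues, with means of 11.6 ± 15.7 (n = 4) in kidney, 21.9 ± 11.7 (n = 3) in TLS and 60.5 ± 3.71 (n = 3) in lymph node. Cxcl16, like Cxcl1, had its lowest mean of the 3 tissues in lymph node. It had 41, 45, 9 and 7 reads in kidney (mice 6 and 20 and the mice aged 25 and 32 weeks), 34, 28 and 25 in TLS and 10, 16 and 20 in lymph node. The means were 25.4 ± 14.5 (n = 4) in kidney, 26.9 ± 3.65 (n = 3) in TLS and 16.3 ± 0.568 (n = 3) in lymph node, and TLS lay above lymph node without overlap.

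TLS were compared with kidney tissue to ask which chemokines mark the aggregates. The kidney libraries include that of the mouse aged 32 weeks, which gave no TLS library. Ccl8 and Cxcl9 were higher in TLS, and no chemokine was called lower. These were 2 of the 7 chemokines that passed the filter, while 14.7% of all 7382 genes tested were called, 8.62% as higher in TLS. Ccl8 differed by 3.49 ± 0.71 (SE) on the log2 scale (adjusted p = 0.00646) and Cxcl9 by 3.28 ± 0.29 (adjusted p = 4.61e-05), with limma. Since Cxcl9 had no read in kidney, its mean in TLS was at least 2.83-fold higher, taken against 3 reads in the shallowest kidney library. In the mice that gave both tissues, Ccl8 and Cxcl9 were higher in TLS in 3 of 3. With mice 6 and 20 alone, Ccl8 kept a difference of 3.69 but its adjusted p was 0.0683 (limma).

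None of the other 5 was called. TLS over kidney was 1.61 for Ccl5 (95% interval, -0.22 to 3.43, adjusted p = 0.229), 1.11 for Cxcl10 (-0.47 to 2.69), 0.26 for Cxcl16 (-0.64 to 1.16), 0.09 for Ccl6 (-0.88 to 1.06) and -0.77 for Ccl7 (-2.50 to 0.96), on the log2 scale with limma. These intervals leave room for changes of more than 2-fold. Ccl5 depended on 1 library: without kidney of mouse 20, the difference was 2.41 with an adjusted p of 0.0140 (limma). The kidneys of the mice aged 25 and 32 weeks set the sign for Cxcl10 and Cxcl16: without them, the differences were -0.33 and -0.49. The median over the 7 chemokines was 1.11, also with Cxcl9 set to its bound, against -0.01 over all genes tested. All 9 T and NK cell markers in the table summed to 89.4 to 151 in TLS against 10.4 to 16.9 in kidney, and macrophage markers to 1020 to 1794 against 183 to 785. The T and NK cell sums in kidney held at most 11 reads, and the rest is the added read of each gene.

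**Figure D4:**
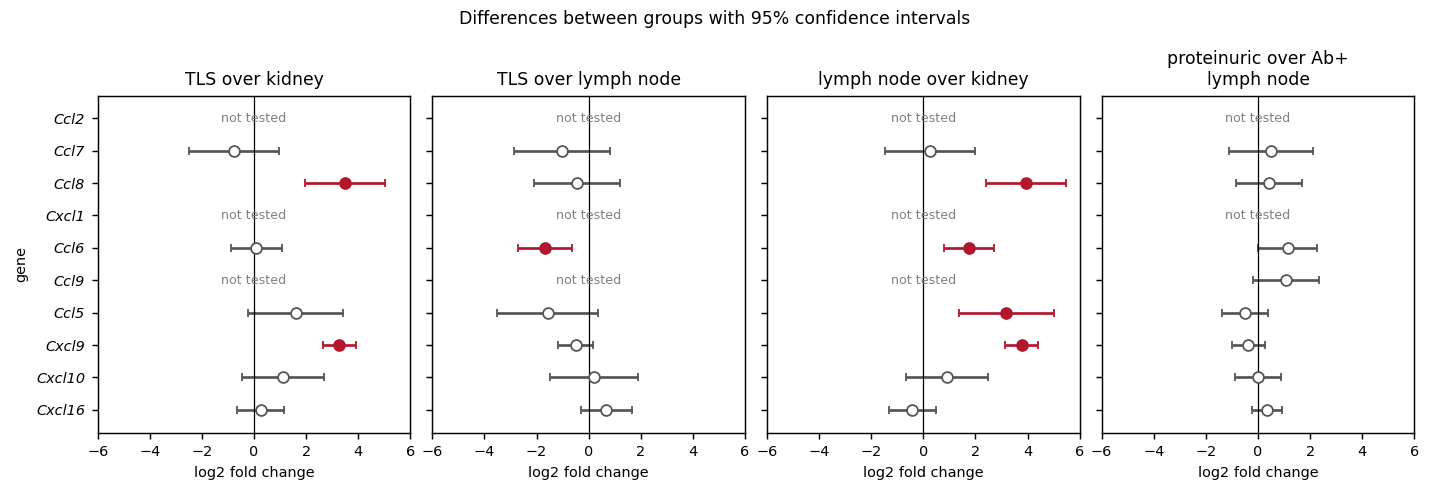
Difference between 2 groups for each tested chemokine on the log2(normalized count + 1) scale, with 95% confidence intervals from limma in 4 panels (filled red, adjusted p under 0.05; TLS, kidney and lymph node of proteinuric mice in the first 3 panels). Ccl8 and Cxcl9 stand clear of 0 against kidney in both lymphoid tissues, and no interval is filled in the comparison of the lymph nodes.

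TLS were compared with lymph nodes of proteinuric mice to ask how far the aggregates match a secondary lymphoid organ. Ccl6 was called lower in TLS, and no other chemokine was called. This was 1 of the 7 tested, while 10.6% of all 7382 genes were called, 1.69% as higher in lymph node. Ccl6 differed by -1.66 ± 0.48 (SE) on the log2 scale (adjusted p = 0.0437, limma). Ccl6 passed the filter through its lymph node values alone (normalized counts of 10.9 there, against 2.64 and 2.66), which favours such a difference, and with no filter beyond 1 read the adjusted p was 0.0251 (limma). The call rests on few reads and on the fit: with the mouse as a block it was -1.65 with an adjusted p of 0.0826 (limma), edgeR gave an adjusted p of 0.0768 and DESeq2 of 0.0772, and without TLS of mouse 20 or of the mouse aged 25 weeks limma gave 0.102 and 0.110. Without any 1 of the 3 lymph nodes, Ccl6 fell below the filter.

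Ccl8 differed between TLS and lymph node by -0.45 on the log2 scale (95% interval, -2.10 to 1.21), Cxcl9 by -0.50 (-1.17 to 0.18), Cxcl10 by 0.22 (-1.47 to 1.90) and Ccl5 by -1.57 (-3.52 to 0.37), with limma. Cxcl16 differed by 0.68 (-0.28 to 1.64) and Ccl7 by -1.02 (-2.87 to 0.83). Only for Cxcl9 and Cxcl16 is the interval narrower than 2 log2 units among these 6. With all 7 lymph nodes as one group, Cxcl9 was called lower in TLS, by -0.71 (adjusted p = 0.0438, limma). The median over the 7 chemokines was -0.50, against -0.04 over all genes tested. T and NK cell markers summed to 244 to 299 in these lymph nodes and 89.4 to 151 in TLS, and macrophage markers to 2300 to 2671 and 1020 to 1794.

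Lymph nodes of proteinuric mice were also set against kidney, the reference for both lymphoid tissues. Ccl5, Ccl6, Ccl8 and Cxcl9 were higher in lymph node, and none was called lower. These were 4 of the 7 tested, while 43.8% of all 7382 genes were called, 20.8% as higher in lymph node. On the log2 scale, Ccl8 differed by 3.94 ± 0.71 (SE, adjusted p = 0.000769), Cxcl9 by 3.77 ± 0.29 (adjusted p = 1.11e-06), Ccl5 by 3.18 ± 0.83 (adjusted p = 0.00917) and Ccl6 by 1.75 ± 0.45 (adjusted p = 0.00682), with limma. Against 3 reads in the shallowest kidney library, the lymph node mean of Cxcl9 was higher by at least 4.01-fold. Ccl5 was not called by edgeR (2.35, adjusted p = 0.0597). The count of 4 includes Ccl6, which passed the filter through lymph node alone (with no filter beyond 1 read, adjusted p = 0.00290, limma).

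The lymph node differences of the remaining 3 were 0.89 for Cxcl10 (95% interval, -0.69 to 2.47), 0.25 for Ccl7 (-1.48 to 1.98) and -0.42 for Cxcl16 (-1.32 to 0.48), with limma. Without the kidneys of the mice aged 25 and 32 weeks, the sign of Cxcl10 and Ccl7 turned, to -0.55 and -0.61, and Cxcl16 was lower in lymph node by -1.17 (adjusted p = 0.0133, limma). Those kidneys were set aside because their chemokine values were low, so this last value is a description of the remaining libraries. The median over the 7 chemokines was 1.75, also with Cxcl9 at its bound, against 0.05 over all genes tested. This comparison shares its kidney libraries with that of TLS and kidney, so the calls of Ccl8 and Cxcl9 in both are not separate observations. The 3 tissue comparisons share libraries throughout.

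Between lymph nodes of proteinuric and antibody-positive mice, no chemokine was called. Of all 6810 genes tested, 0 (0%) were called with limma, although 215 had an unadjusted p under 0.05. With edgeR 0 genes were called (223 at an unadjusted p under 0.05) and with DESeq2 13, none of them among these chemokines. Of the 8 chemokines tested, Ccl6 alone had an unadjusted p under 0.05 (0.0483, adjusted p = 0.998, limma), at 1.14 on the log2 scale (95% interval, 0.01 to 2.27) in proteinuric over antibody-positive mice. It had 1, 3 and 7 reads in antibody-positive lymph nodes (mice 10, 11 and 25), which overlap the 6, 15 and 8 reads of proteinuric mice.

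The T-cell attractants differed by at most 0.50 on the log2 scale between these lymph nodes. Cxcl9 had 37, 39 and 31 reads in antibody-positive mice and a normalized count of 36.7 ± 1.42 (n = 3), above 28.5 ± 4.98 (n = 3) in proteinuric mice without overlap, and the difference was -0.37 (95% interval, -0.98 to 0.25). Cxcl16 had 13, 11 and 11 reads and a count of 12.7 ± 1.20, below 16.3 ± 0.568 without overlap (0.34, -0.23 to 0.92). Cxcl10 had 13, 12 and 24 reads, and its difference was 0.01 (-0.88 to 0.89). Ccl5 had 134, 101 and 44 reads, a count of 91.3 ± 37.1, and a difference of -0.50 (-1.38 to 0.39). For Cxcl9, Cxcl10 and Cxcl16 the intervals lie within a 2-fold change in either direction on this scale. With 3 mice against 3, an exact permutation test of 1 gene cannot give a two-sided p below 0.1 (0.0571 for 3 against 4), so none was used for calls. Values without overlap, as of Cxcl9, Cxcl16 and Ccl9 here, give that p of 0.1 in the permutation test. The share of all genes without overlap was not determined, so these separations are a description only.

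Ccl7, Ccl8 and Ccl9 had wider intervals in the lymph node comparison. Ccl8 had 56, 107 and 58 reads in antibody-positive mice and differed by 0.43 (-0.84 to 1.70). Ccl9 had 0, 3 and 3 reads, all below the proteinuric values when normalized, and differed by 1.08 (-0.20 to 2.36). Ccl7 had 1, 4 and 4 reads and differed by 0.50 (-1.13 to 2.13). Ccl2, with 2, 5 and 0 reads, and Cxcl1, with none, were below the filter. The median over the 8 tested was 0.38, against -0.08 over all genes tested.

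The receptors of these chemokines were also followed. Values are given for Ccr1, Ccr2 and Cxcr3, of which Cxcr3 passed the filter. Cxcr3, the receptor of Cxcl9 and Cxcl10, had no read in any kidney. It had 42, 21 and 10 reads in TLS (mice 6 and 20 and the mouse aged 25 weeks) and 18, 29 and 31 in lymph node of proteinuric mice. Cxcr3 was higher than in kidney by 3.28 ± 0.35 (SE) in TLS (adjusted p = 0.000127) and by 3.73 ± 0.35 in lymph node (adjusted p = 4.86e-06, limma), at least 3.09-fold and 3.84-fold against 3 reads in the shallowest kidney library. Cxcl9 and its receptor Cxcr3 were thus both without a read in the 4 kidneys and read in all 10 other libraries.

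Cxcr3 was not called between TLS and lymph node (-0.45, adjusted p = 0.533, limma). Ccr2, the receptor of Ccl2 and Ccl7, had 3 and 7 reads in kidney of mice 6 and 20 and 0 in the others, 1, 4 and 0 in TLS and 2, 3 and 2 in lymph node. Ccr1 had 0 to 1 read in kidney, 0, 5 and 2 in TLS and 0 to 1 in lymph node of proteinuric mice. Among decoy receptors, Ackr3, which takes up Cxcl12, was the only one tested and was lower in lymph node than in kidney by -2.43 ± 0.35 (adjusted p = 0.000112, limma) and higher in TLS than in lymph node by 1.60 ± 0.37 (adjusted p = 0.0147, limma). Between proteinuric and antibody-positive lymph nodes, Cxcr3 had 18, 29 and 31 against 35, 34 and 19 reads and was not called (-0.11 ± 0.28, adjusted p = 0.998, limma).

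Other chemokines, among them the homeostatic Ccl19, Ccl21a and Cxcl13, were taken as a list. Of 28 on the list, 19 were in the table and 11 were tested, and differences of these and the following lists are given ± SE for genes with an adjusted p under 0.05 (limma). Against kidney, 4 of the 11 were higher in TLS (8.62% of all genes) and none lower: Ccl19 (3.71 ± 0.58, normalized counts of 82.9 and 5.34), Cxcl13 (3.51 ± 0.30), Ccl21a (2.26 ± 0.52) and Ccl4 (1.73 ± 0.32). Between TLS and lymph node, 3 were higher in lymph node, Ccl21a (-4.52 ± 0.56), Xcl1 (-2.20 ± 0.48) and Cxcl12 (-1.43 ± 0.40), and Cx3cl1 was higher in TLS (3.13 ± 0.60). Cxcl12 was not called there with the mouse as a block, with edgeR or with DESeq2. Xcl1 had 5, 0 and 2 reads in TLS (mice 6 and 20 and the mouse aged 25 weeks). In lymph node it had 10, 17 and 16 (mice 6 and 20 and the mouse aged 32 weeks). It passed the filter through its lymph node values alone, which favours such a difference. Ccl21a shares near-identical gene copies, so its counts are uncertain. Cx3cl1, a transmembrane chemokine like Cxcl16, had 66, 66, 12 and 7 reads in kidney (mice 6 and 20 and the mice aged 25 and 32 weeks), 27, 32 and 6 in TLS and none in any of the 7 lymph nodes. In lymph node over kidney, 7 of the 11 were higher and 1 was lower, where 43.8% of all genes were called and 20.8% were higher in lymph node. The count of 7 includes Xcl1, which passed the filter through lymph node alone. Ccl19 had 180, 77 and 30 reads in TLS (mice 6 and 20 and the mouse aged 25 weeks), and its highest TLS library was thus that of Ccl8.

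Of the genes that answer interferon-gamma, which drives Cxcl9 and Cxcl10, 20 were on the list, 17 in the table and 14 tested. Between TLS and kidney, 10 of the 14 were higher in TLS (8.62% of all genes) and none lower, among them Psmb9 (2.94 ± 0.44), Psmb8 (2.57 ± 0.55) and Tap1 (2.40 ± 0.53), with a median of 1.60 over the 14. Without the 2 kidneys low in chemokines, 3 of the 14 were called. In lymph node over kidney 12 of 14 were higher (20.8% of all genes), 9 without those kidneys, and between TLS and lymph node none was called. The counts of 10 and 12 both include Ciita and Cd274, which had 0 and at most 1 read in any kidney. These genes reached the filter only with their lymph node values, which favours a difference between lymph node and kidney. Psmb8, Psmb9 and Tap1 encode parts of the machinery that prepares peptides for MHC class I.

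Of the genes that answer TNF and NF-kB, 2 were higher in TLS than in kidney. Of 16 on the list, 14 were in the table and 13 were tested. Between TLS and kidney, Nfkbia (1.70 ± 0.45), which encodes the NF-kB inhibitor, and Il1b (1.55 ± 0.46) were higher in TLS, and 14.7% of all genes were called there, 8.62% as higher in TLS. Neither was called without the 2 kidneys low in chemokines, and Il1b was not called with edgeR or DESeq2. In lymph node over kidney, where 43.8% of all genes were called, 10 of the 13 were higher and 2 lower (4 and 2 without those kidneys). Among them were Ier3 (-3.27 ± 0.37), Nfkbie (2.48 ± 0.51), Il1b (2.31 ± 0.46) and Nfkb2 (2.06 ± 0.61). The 10 include Tnfaip3, which reached the filter only with its lymph node values. In TLS over lymph node Ier3 alone was called (2.70 ± 0.39). Among 4 tested enzymes that cut chemokines, none was called between TLS and kidney, while Adam17, which sheds membrane proteins, was higher in lymph node than in kidney (1.32 ± 0.29) and Dpp4, which trims Cxcl10 and other chemokines, was lower (-1.24 ± 0.36).

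The genes most like each chemokine over the 14 libraries were sought among genes with a mean of at least 5, by Pearson's r of log2(normalized count + 1). Cxcl9 was most like Ly9, Cxcr5 and Fcrla (r = 0.990, 0.989 and 0.989), genes of lymphocytes that had no read in kidney either. Ccl5 was most like Fxyd5 (0.969), Psmb10 (0.966) and the T-cell gene Thy1 (0.965). Ccl8 was most like Mzb1 (0.955), a gene of plasma and marginal zone B cells, Rps27 (0.939) and Ly6k (0.938). Cxcl16 was most like Cd14 (0.948), Bag2 (0.896) and F3 (0.890), all of them lower in lymph node than in kidney by their means. Cd14 is on the list of macrophage markers but differed there from most of them. Of the 9 tested, 6 were called higher in lymph node than in kidney and 0 lower (limma). Cxcl10 was most like Csrp1 (0.924), Tes (0.894) and Pradc1 (0.891), and Ccl7 was most like Cd302 (0.883) and Smim15 (0.862). The points share tissues, mice and depth, and no test was made.

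Between the chemokines themselves, Ccl8 and Cxcl9 were the most alike pair of the 10 (Pearson's r = 0.896 over the 14 libraries). Ccl5 correlated with Cxcl9 (0.765) and Ccl8 (0.755). Cxcl1 ran with Cxcl16 (0.711) and Ccl2 (0.651), and against Cxcl9 (-0.677). Cxcl9 and Cxcl10, ligands of one receptor, had an r of 0.366. These values describe the same libraries as the comparisons above.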

How the data were processed

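Poly(A) RNA was sequenced on an Ion Torrent PGM. The authors trimmed adaptors and analysed the reads with CLC Genomics Workbench 8 (GRCm38 reference, defaults). The deposited signal is a read number plus 1 over a DESeq size factor, as found from the values, of which 100% gave whole reads (tolerance 1e-06). The labels also name tools of the whole-kidney libraries, which were not analysed here.

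Groups were taken from the labels. Main tests used limma 3.58.1 (trend, robust) in R 4.3.3 on log2(value + 1), for genes with a mean of at least 5 in the fit, with Benjamini-Hochberg adjustment at 0.05 over all genes tested. One fit held the 10 libraries of proteinuric mice and another the 6 lymph nodes of proteinuric and antibody-positive mice. The young lymph node was described only. Alternatives were edgeR 4.0.16 (quasi-likelihood, TMM) and DESeq2 1.42.0 (Wald) on the recovered reads, other scalings, filters and pseudocounts, other sets of libraries, the mouse as a block and leaving out each library. The limma, edgeR and DESeq2 fits were tested on simulated data. Promoters came from RefSeq and gene models from GENCODE M21. Levels per kilobase used merged exons.

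The chemokines, the gene lists and the tests were chosen with earlier results of these data known. Genes other than the 10 were named by rule: the receptors, the 4 genes of each list with the largest change among those called, and the 3 genes with the highest correlation to each chemokine with a mean of at least 5, and some genes that the rule names are not reported here. Floors are 3 reads, plus the added read, in the shallowest library of a group, and floors and 95% Wilson intervals cover counting error only.

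Tissues of 1 mouse are paired. Deviations from the tissue means correlated at 0.351, 0.364 and 0.454 between kidney and TLS of one mouse (median of -0.239 between different mice), at -0.335 to 0.202 between kidney and lymph node of one mouse and at -0.266 and 0.0254 between TLS and lymph node of one mouse.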

Additional observations from a re-analysis of the deposited data

Results flagged for a closer look

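The lymph node of the young mouse, aged 4 weeks, stands in no comparison, and 6 of the 10 chemokines had more than 3 reads in it. Ccl8 had 133 reads (normalized count of 120), Ccl5 82 (74.3), Cxcl9 40 (36.7), Cxcl16 14 (13.4), Cxcl10 13 (12.5) and Ccl7 7 (7.16). All 6 values lay within the range of the 6 lymph nodes of older mice, and that of Cxcl9 within the range of antibody-positive mice (35.2 to 38.1). It is 1 library, so that no test was possible.

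Among the 4 kidney libraries, no chemokine had a value set apart from the other 3 by more than Dixon's 95% limit.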

How the results depend on the processing

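Differences of the chemokines tested in the main fits were recomputed under other settings. Where the chemokine still passed the filter, 534 kept direction and side of the threshold, 27 reversed, 8 lost and 4 gained a call. These totals leave out calls lost by falling below the filter. They also leave out calls gained by chemokines that the main fits did not test. The settings without 2 kidneys, with only mice 6 and 20 and without the 3 libraries rich in ribosomal RNA were chosen after seeing the data. The first 2 remove kidneys low in chemokines, so gains carry no support. Cxcl9 against kidney in both tissues and Ccl8 in lymph node over kidney were called under every setting run. For TLS against kidney, 1 chemokine was called with only mice 6 and 20. For TLS against lymph node, 0 were called with edgeR, DESeq2, TMM scaling, size factors without the added read, total counts without ribosomal RNA, the filter raised to 10, the replicate block by mouse, and without the 3 libraries, and 0 to 1 leaving out single libraries. Under 4 of these (the 3 other scalings and the raised filter) Ccl6 fell below the filter. For lymph node against kidney, 7 were called without the 2 kidneys and 7 with only mice 6 and 20, in both settings Ccl5, Ccl6, Ccl8, Ccl9 and Cxcl9 as higher in lymph node and Cxcl1 and Cxcl16 as lower. Signs turned as follows. TLS over kidney: Ccl6 gave -0.018 with the replicate block, -0.38 without the 2 kidneys and -0.29 with mice 6 and 20, Cxcl10 -0.33 and -0.25, and Cxcl16 -0.49 and -0.53 in the last 2. TLS over lymph node without the 3 libraries: Ccl7 0.036 and Ccl8 0.31. Lymph node over kidney: Ccl7 -0.089 with the replicate block, -0.61, -0.50 and -0.58 (2 kidneys, mice 6 and 20, 3 libraries), and Cxcl10 -0.55 and -0.38 in the first 2. Between lymph nodes, Cxcl10 gave -0.020 with DESeq2 and -0.0042 with pseudocount 5. Leaving out single libraries gave -0.13 to 0.37 (Ccl6) and -0.036 to 0.52 (Cxcl16) for TLS over kidney, -0.998 to 0.083 (Ccl8) for TLS over lymph node, -0.22 to 0.87 (Ccl7) for lymph node over kidney, and -0.10 to 0.98 (Ccl8) and -0.20 to 0.38 (Cxcl10) between lymph nodes. Among the 10 chemokines the block changed the call of Ccl6 between TLS and lymph node and no other. In the lists, the block left 9 (TLS) and 10 (lymph node) of 14 interferon-gamma genes higher than in kidney and 8 TNF and NF-kB genes higher in lymph node than in kidney, added Sod2 (lower) and Ackr3 (lower, -1.03) between TLS and kidney, raised the other chemokines of lymph node over kidney to 8 higher and 2 lower, and lost Cxcl12 between TLS and lymph node. Of all calls between TLS and kidney, 58.7% were higher in TLS with limma, 79.6% with edgeR, 68.8% with DESeq2 and 72.5% with TMM scaling, and between TLS and lymph node 84.0% with limma, 95.2% with edgeR and 96.3% with TMM scaling. TMM scaling moved the median of all genes by 0.12 (TLS over kidney) and 0.21 (TLS over lymph node). The causes were not tested.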
